A study of Canis lupus familiaris with 30 samples.

Results

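Neuroendocrine transcription factors are the DNA-binding proteins that switch on the genes of hormone-secreting cells with neuron-like secretory granules. In the thyroid, that cell type is the C cell, which makes calcitonin, whereas the follicular cells around it make thyroglobulin and thyroid hormone. The factors act in layers: pioneer factors open chromatin, proneural and LIM homeodomain factors choose the cell type, and zinc finger repressors shut off the programs of other cells.

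The 8 genes considered were INSM1, NEUROD1, ISL1, NKX2-2, FOXA1, FOXA2, ST18 and MYT1, chosen by symbol. Of these, 6 were matched to a gene and analysed, among 30424 genes counted in the series, while INSM1 and NEUROD1 were not analysed here. The identifiers were ENSCAFG00000018449 for ISL1, ENSCAFG00000005173 for NKX2-2, ENSCAFG00000013743 for FOXA1, ENSCAFG00000005168 for FOXA2, ENSCAFG00000006762 for ST18 and ENSCAFG00000013222 for MYT1. At least 10 counts in at least 5 tumors were found for 5 of the 6 genes, and NKX2-2 fell short of this limit.

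RNA was sequenced from 30 primary thyroid carcinomas of dogs (Canis lupus familiaris), as total RNA from which ribosomal RNA had been removed. The study dealt with follicular and medullary carcinomas, tumors of follicular cells and of C cells, but the sample labels describe every tumor alike, as thyroid gland tumor tissue, with no type, age, treatment or batch. No tumor was therefore assigned to a type, and no types were compared. Between 12288945 (TC538) and 45148677 (TC1869) reads per tumor were counted on genes. A level below is the log2 of a tumor's read count divided by its median-of-ratios size factor (a scaling for depth and composition), plus 1. Levels of different genes were not compared, because the counts are not scaled by gene length.

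The tumors did not form a single cloud. Clustering of the 30 tumors on 759 variable genes, from which the 8 factors were left out, separated 5 tumors (TC1020, TC1473, TC1601, TC1936 and TC2289) from the other 25. These are clusters of expression data and not labelled groups, so values of the 5 tumors and the other 25 are set side by side without a test. RET, the receptor tyrosine kinase gene of C cells, lay between 13.00 and 14.49 in the 5 tumors and at no more than 9.38 in the other 25. CALCA, the calcitonin gene, reached between 16.80 and 19.24 in 4 of the 5 tumors but only 6.94 in TC2289. PAX8, a transcription factor gene of follicular cells, lay between 3.12 and 10.68 in the 5 tumors and between 6.87 and 14.94 in the other 25. The lowest PAX8 level among the 25 belonged to TC1088, in which TG (thyroglobulin) had 12 counts and CALCA had 1, while PAX8 had 116 and RET 110. Results that rest on TC1088 are given with and without it.

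ISL1, FOXA1, FOXA2 and ST18 were higher in each of the 5 tumors than in every one of the other 25, and MYT1 was high in 4 of the 5. NKX2-2 was the exception: it was at or near 0 in all 5 and high in a pair of other tumors. Of the 6 genes, 4 thus showed no overlap, all in the higher direction. Across all 18711 genes passing the count limit, 337 (1.8%) were higher without overlap and 62 (0.331%) lower, and without any count limit 388 of 28978 (1.34%) were higher. The same 4 genes were without overlap under every alternative scaling and filter and when TC1088 or TC538, the smallest library, was left out. ISL1, FOXA1 and FOXA2 passed the count limit only through the 5 tumors in which they were high, since among the other 25 only 3, 3 and 1 tumors reached 10 counts. The count of genes without overlap is therefore a description and is not read against these shares. In bulk tissue, fewer cells of a type and less RNA per cell cannot be told apart.

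**Figure D1:**
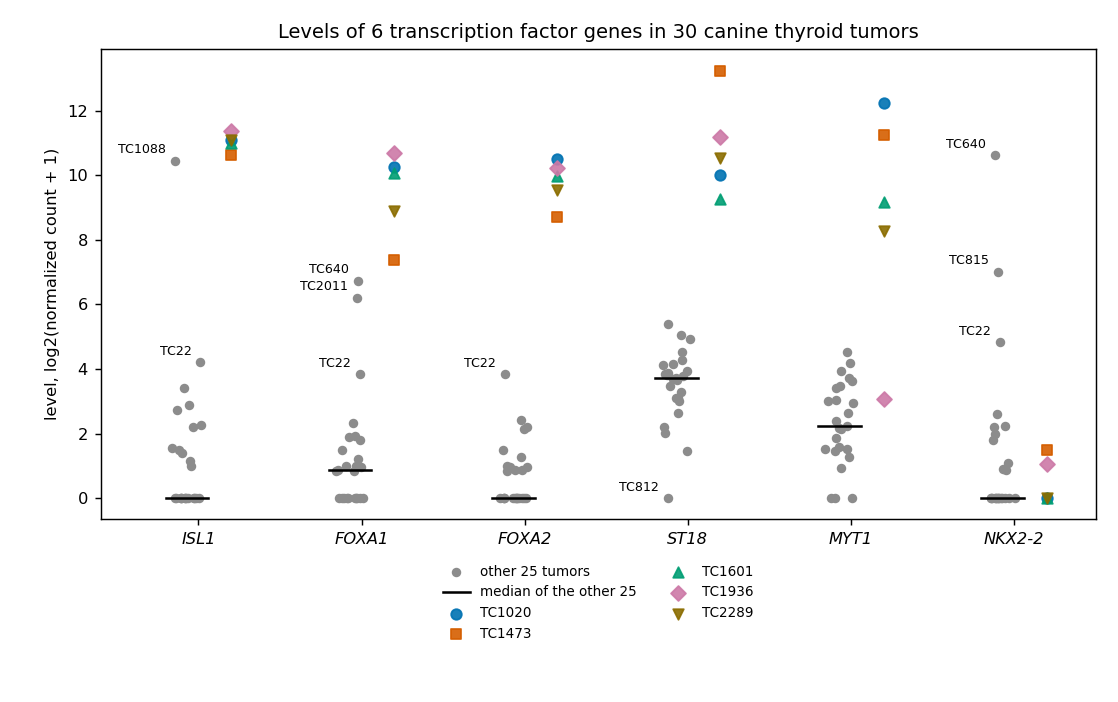
Level of each factor, log2(normalized count + 1), in 30 canine thyroid tumors. Gray points are the other 25 tumors, the black line is their median, and colored symbols are the 5 tumors that stood apart. ISL1, FOXA1, FOXA2 and ST18 showed no overlap, MYT1 overlapped through TC1936, and NKX2-2 was highest in TC640 at 10.62.

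ISL1 encodes a LIM homeodomain factor needed for the formation of several endocrine and neuronal cell types. In the 5 tumors it was counted 2254 times in TC1020, 1748 in TC1473, 2357 in TC1601, 2504 in TC1936 and 1716 in TC2289. The corresponding levels were 11.09, 10.64, 10.98, 11.37 and 11.10. These values lay close together, within 1.67-fold, which made ISL1 the least variable of the factors among the 5 tumors (SD 0.27 of the level).
In the other 25 tumors the lowest and the median level of ISL1 were 0 and the highest was 10.45, with 13 of 25 tumors at 0 counts. A single tumor, TC1088, made up the upper end, with 1405 counts (95% Poisson interval 1332 to 1480). The next was TC22 with 25 counts (16.2 to 36.9), followed by TC1979 with 12. The intervals cover counting error only, since the reads were not counted by molecular identifier. The lowest of the 5 tumors, TC1473, exceeded TC1088 by 1.14-fold in normalized counts. The separation of ISL1 was therefore narrow because of TC1088 alone, and the highest level among the remaining 24 was 4.22.

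FOXA1 and FOXA2 encode forkhead pioneer factors, proteins that bind closed chromatin and open it in tissues derived from endoderm. FOXA1 was counted 1255 times in TC1020, 182 in TC1473, 1238 in TC1601, 1555 in TC1936 and 367 in TC2289, at levels of 10.25, 7.38, 10.05, 10.68 and 8.88. TC1473 was lowest by far, and the 5 tumors spanned 9.93-fold. In the other 25 tumors FOXA1 ranged from 0 through a median of 0.88 to 6.74, with 10 tumors at 0 counts. The upper end was formed by TC640 with 110 counts (95% Poisson interval 90.4 to 133) and TC2011 with 84 (67.0 to 104). TC1473 exceeded TC640 by 1.57-fold in normalized counts, so the groups did not overlap, but the gap was small.
FOXA2 was counted 1497 times in TC1020, 461 in TC1473, 1159 in TC1601, 1118 in TC1936 and 578 in TC2289, at levels of 10.50, 8.72, 9.96, 10.21 and 9.53. In the other 25 tumors the lowest and the median level were 0 and the highest was 3.84 (TC22, 19 counts, interval 11.4 to 29.7), with 13 tumors at 0. The lowest of the 5 exceeded TC22 by 31.4-fold, the widest separation among the factors.
TC1473 and TC2289 were the lowest of the 5 in both forkhead genes. The ratio of FOXA1 to FOXA2 counts, which compares the balance of the genes between tumors and not their absolute levels, was 0.838 in TC1020, 0.395 in TC1473, 1.07 in TC1601, 1.39 in TC1936 and 0.635 in TC2289. The third member of the family, FOXA3, had 1 count in each of the 5 tumors and a highest level of 1.95 in the other 25, and did not pass the count limit. FOXA1 without FOXA2 occurred in TC640, where FOXA2 had 0 counts, and nearly so in TC2011, where it had 5.

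ST18 and MYT1 encode related zinc finger factors of neuronal and endocrine cells, a family completed by MYT1L. ST18 was counted 1063 times in TC1020, 10647 in TC1473, 716 in TC1601, 2212 in TC1936 and 1151 in TC2289, at levels of 10.01, 13.24, 9.27, 11.19 and 10.53. Its highest tumor, TC1473, was the lowest of the 5 in FOXA1, FOXA2 and ISL1. ST18 was also the factor most often counted in the other tumors: among the 25 it ranged from 0 (TC812) through a median of 3.73 to 5.38 (TC1994), and TC812 was the only tumor with no count. The lowest of the 5 exceeded TC1994 by 15.1-fold in normalized counts.
MYT1 was counted 4948 times in TC1020, 2651 in TC1473, 667 in TC1601, 7 in TC1936 and 242 in TC2289, at levels of 12.22, 11.24, 9.16, 3.07 and 8.28. The other 25 tumors ranged from 0 through a median of 2.25 to 4.52 (TC812, 24 counts). TC1936 therefore lay inside the range of the 25 (95% Poisson interval of its 7 counts, 2.81 to 14.4), although it held the highest ISL1 and FOXA1 of all 30 tumors and the second highest ST18. The MYT1 level spanned 9.15 among the 5 tumors, or 647-fold in normalized counts. The ratio of ST18 to MYT1 counts accordingly ran from 0.215 in TC1020 to 316 in TC1936, with 4.02 in TC1473, 1.07 in TC1601 and 4.76 in TC2289.
MYT1L overlapped between the 5 tumors and the other 25. It was at 0 in TC1936 as well, and its highest level of all tumors was 9.82 in TC2289, the tumor with the second lowest MYT1 of the 5.

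**Figure D2:**
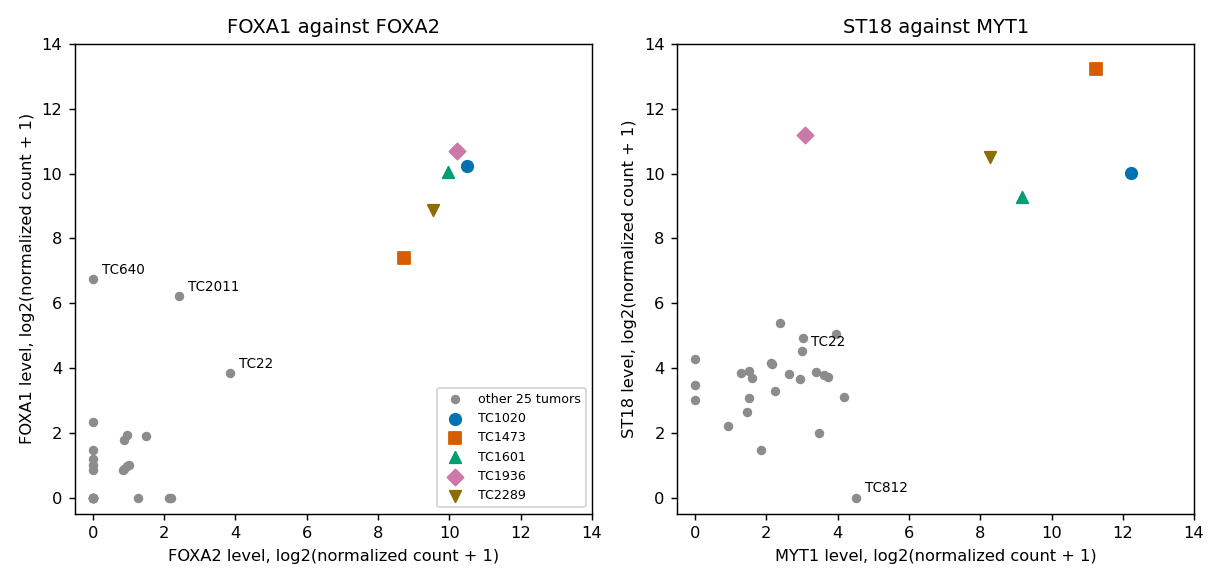
FOXA1 level against FOXA2 level (left) and ST18 level against MYT1 level (right), both as log2(normalized count + 1), with 1 point per tumor. The 5 tumors that stood apart are colored and the other 25 are gray. TC640 and TC2011 held FOXA1 with little or no FOXA2, and TC1936 held ST18 at 11.19 with MYT1 at 3.07.

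NKX2-2 encodes a homeodomain factor of the endocrine pancreas, gut and ventral neural tube. In the 5 tumors its counts were 0, 2, 0, 1 and 0, none above the 3 counts that a count of 0 still allows. In the other 25 tumors the lowest and median levels were 0 and the highest was 10.62, with 14 tumors at 0 counts. TC640 held 1636 counts (95% Poisson interval 1558 to 1717), TC815 held 157 (133 to 184) and TC22 held 39 (27.7 to 53.3). All remaining tumors had 6 counts or fewer. NKX2-2 was thus a gene of single tumors, and none of those with over 100 counts was among the 5.
TC640 and TC815 differed in their other factors. TC640 held FOXA1 at 6.74. TC815 had FOXA1 at 1.79 and held NKX6-2, a homeodomain factor gene of the neural tube, at 10.56, and ELAVL3, a neuronal RNA-binding protein gene, at 7.28, each the highest of the 25. NKX6-2 and ELAVL3 were named after their values were seen. PAX8 was at 13.52 in TC640 and 13.29 in TC815, close to the median of the 25 (13.71).

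**Figure D3:**
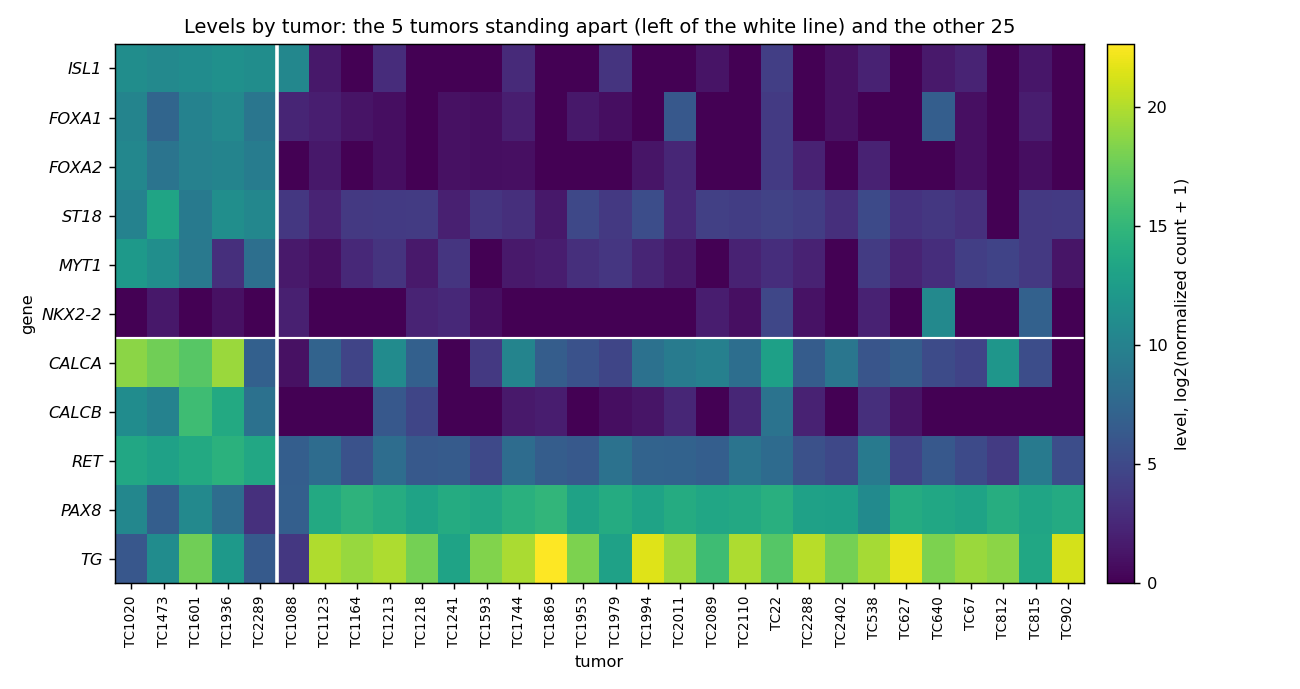
Levels, log2(normalized count + 1), of the 6 factors (top) and of C cell and follicular cell markers (bottom) in each tumor, with the 5 tumors that stood apart left of the vertical line. TC2289 carried the factors and RET at 13.54 with CALCA at 6.94, and TC1088 carried ISL1 at 10.45 with CALCA at 1.00 and TG at 3.70.

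CALCA is the best known product of C cells, so the factors were set beside it in each tumor. TC2289 had only 95 CALCA counts, against 132876 to 586358 in the other 4 of the 5 tumors, and yet 1716 counts of ISL1, 578 of FOXA2 and 1151 of ST18. CALCB, a second gene of the calcitonin family, was at 8.48 in TC2289, the lowest of the 5. CRSP-4, a further gene of that family, was instead highest of all tumors in TC2289 (11.20, 1830 counts). Reads shared between near-identical copies in the family make the CRSP-4 value uncertain. The levels of ISL1, FOXA1, FOXA2 and ST18 in this tumor stood within the span of the other 4, whereas CALCA did not.
The other 25 tumors contained the opposite case. TC812 had 4296 CALCA counts, the second highest level of the 25 (11.94), and 0 counts of ISL1, FOXA1, FOXA2 and ST18, with MYT1 at 24 counts. TC1213 had 2379 CALCA counts and 8 of ISL1, with 1 count each of FOXA1 and FOXA2.
TC22 had the highest CALCA (10889 counts, 12.90) and CALCB (8.66) levels of the 25, and it was the only tumor in the series with at least 10 counts of all 6 factors. That limit was not scaled for depth: MYT1 in TC22, a library with a size factor of 1.42, had exactly 10 counts (95% Poisson interval 4.80 to 18.4). The 5 tumors all fell short of the limit in NKX2-2. In TC22 the FOXA2 count per 1000 CALCA counts was 1.74, against 1.87 to 8.72 in the 4 of the 5 tumors with high CALCA. Its ISL1 count per 1000 CALCA counts was 2.30, against 4.27 to 17.7. The values of the other 3 factors in TC22 lay within the range of those 4 tumors: ST18 was at 2.85, between 2.42 and 43.1, FOXA1 at 1.74, between 0.736 and 9.32, and MYT1 at 0.918, between 0.0119 and 11.3. NKX2-2 lay above it, with 3.58 per 1000 CALCA counts in TC22 and at most 0.00809 in those 4 tumors. PAX8 in TC22 was at 14.32 and TG at 16.70. The log2 of the summed normalized counts (plus 1) of 4 C cell markers, CALCA, CALCB, RET and GFRA4, was 13.03 in TC22, the highest of the 25, and lay between 13.61 and 19.36 in the 5 tumors. That sum was mostly CALCA in TC22 and mostly RET (13.54) in TC2289, the lowest of the 5. RET in TC22 was at 7.945, below TC815 (9.38) and below every one of the 5 tumors, the lowest of which was at 13.00. The part of C cells in the TC22 values was not tested.

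**Figure D4:**
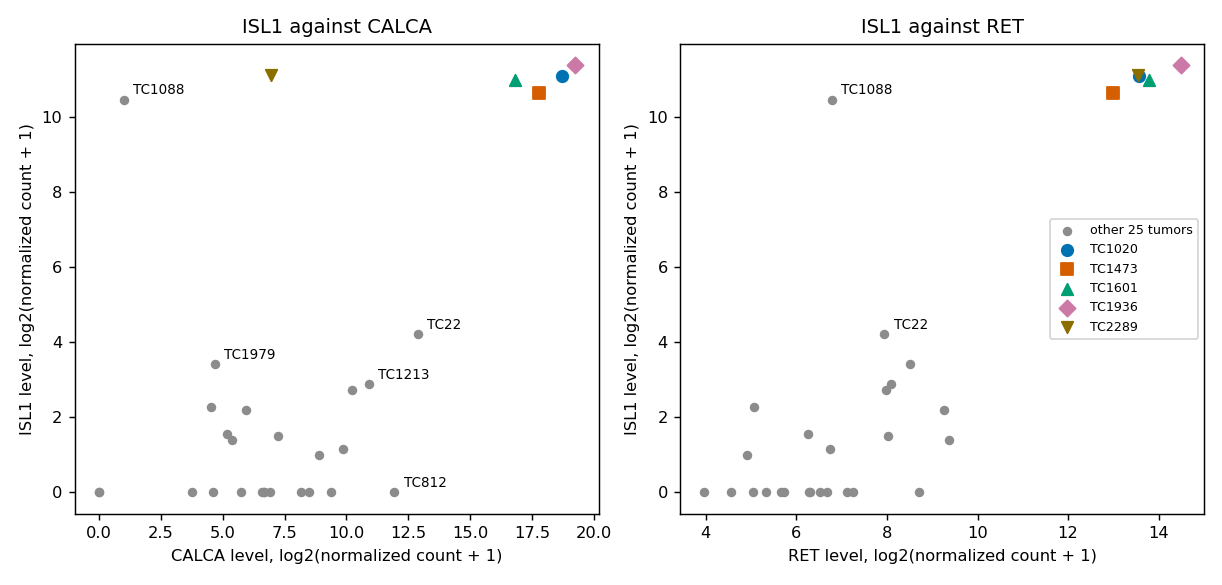
ISL1 level against CALCA level (left) and against RET level (right), log2(normalized count + 1), with 1 point per tumor. TC2289 lay with the other colored tumors for RET but not for CALCA, and TC1088 held ISL1 at 10.45 with CALCA at 1.00 and RET at 6.79.

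Within the 25 tumors alone, the 5 factors that passed the count limit were tested for covariation by Spearman's rho with 100000 permutations (two-sided), adjusted by the Benjamini-Hochberg method over 18710 genes. No test was made over all 30 tumors, since they fell into separate clusters. Of the 10 pairs of factors, 0 passed an adjusted p of 0.05 and 1 had an unadjusted p below it, beside 0.0% of all genes called with any of the 5 factors. That pair was ISL1 and FOXA1 (rho = 0.46, permutation p = 0.0212, adjusted p = 0.835). Its Pearson's r was 0.24 (permutation p = 0.188), and 0.14 (p = 0.574) without TC1088 and TC22, the 2 tumors farthest from the median of ISL1. By Pearson's r, of the 10 pairs, FOXA1 and FOXA2 alone had an unadjusted p below 0.05, and only without 2 tumors, with r = 0.33 (permutation p = 0.0997) over the 25 tumors and 0.47 (p = 0.0275) without TC640 and TC2011. Both ISL1 and FOXA1 were at 0 counts in 8 of the 25 tumors, so there was little range in which a relation could be detected.
With CALCA, 0 of 5 factors passed, and 0 had an unadjusted p below 0.05, with rho between -0.10 and 0.18. Of all 18710 genes, 0.0% passed with CALCA in either direction, so this is no result about the factors. With PAX8, 0 of 5 passed and 0 had an unadjusted p below 0.05, with rho between -0.38 (ST18, permutation p = 0.0573, adjusted p = 0.415) and 0.09. Of all genes, 2.31% were positively and 1.85% negatively related to PAX8 at the same limit. ISL1 and PAX8 had a Pearson's r of -0.73 (permutation p = 0.0161) but a rho of -0.07 (p = 0.732), and r became 0.16 (p = 0.465) without TC1088 and TC538. That r therefore rested on those tumors. For ST18 and PAX8, r was -0.28 (permutation p = 0.155) and became -0.44 (p = 0.0334) without the same 2 tumors.

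The genes whose pattern over the 30 tumors was most like that of each factor were found among 13573 named genes, by Spearman's rho and as a description. The clusters enter these values, as do depth and library. ISL1 was most like CRSP-4 (0.84), a calcitonin family gene, NKAIN2 (0.81) and ERBB4 (0.79). Near-identical copies within the calcitonin family could share reads, so the CRSP-4 value is uncertain. FOXA1 was most like THRA (0.81), SEZ6L2 (0.78) and DLG4 (0.76), and FOXA2 like BCAT1 (0.80), ACTL6B (0.78) and SLC18A1 (0.77). ST18 was most like STK32A (0.81), IL17RB (0.80) and PRKCB (0.79). MYT1 was most like GCGR (0.76), GPR162 (0.76) and GINS1 (0.76), and NKX2-2 like GJB6 (0.68), NEDD4 (0.67) and SCLT1 (0.65).
Over the 25 tumors alone, which are part of the 30 and so share most of their values, the top 3 were taken again. FOXA1, FOXA2, ISL1 and NKX2-2 had 3 counts or fewer in 19 to 23 of these tumors, so their ranks rest on very few reads. The top 3 for ISL1 were DNAI1 (0.71), NKAIN2 (0.70) and CRSP-4 (0.69). THRA was first for FOXA1 (0.70), before ARRDC4 (0.68) and KLF10 (0.67), and GINS1 was first for MYT1 (0.77), before NFATC2IP (0.71) and CENPP (0.70). For NKX2-2 the top 3 were HS6ST2 (0.71), GJB6 (0.70) and SCLT1 (0.70). ST18 was most like CD109 (0.79), MILR1 (0.75) and LCP2 (0.75), and FOXA2 like NPTX1 (0.68), PCDHB16 (0.66) and DGUOK (0.65). TC1994 (5.38) and TC538 (5.06, 9 counts) had the highest ST18 of the 25 and also the highest PTPRC, a leukocyte marker gene (10.68 and 10.56). TC1953, next in ST18 (4.93), had PTPRC at 7.40. Of all 30 tumors, TC1473 had the highest ST18, PTPRC (11.86) and CD3E (7.83), but not the highest CD79A (12.38) or CD68 (7.27). The part of leukocytes in the ST18 values was not tested.

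The factors were then set beside 8 lists of related genes, 107 genes in all, of which 90 were matched and 68 passed the count limit. None of these 68 was lower in the 5 tumors without overlap.
Neuroendocrine effectors are the genes of secretory granules and hormone processing that such factors switch on. Of 20 effector genes, all of which passed the limit, 10 were higher without overlap, beside 1.8% of all genes. The median over the 20 genes of the difference between the median level of the 5 and that of the 25 was 7.14, against 0.02 over all 18711 genes. Effector genes were not left out of the clustering, so they could help to separate the 5 tumors. A gene high in all 5 tumors also passes the count limit through them alone. The count and the median difference are therefore a description and are not read against all genes. SCG2, which encodes a granin of secretory granules, had the largest gap, with 15.04 to 17.64 in the 5 tumors and 0 to 8.66 in the other 25. SNAP25, which encodes a protein of vesicle fusion, lay between 10.75 and 12.83 against 0 and 5.20. The next were CPE (12.48 to 15.02 against 6.81 to 9.16), a peptide processing enzyme gene, and SCG3 (13.15 to 15.52 against 4.91 to 9.90), another granin gene. PCSK2, SCG5, SYP, PCSK1, CELF3 and DDC completed the 10.
Effectors that overlapped included CHGB, STMN2 and SST. CHGB was at 7.61 in TC1601 against 8.05 in TC22. SST (somatostatin) was highest at 15.09 in TC1473 and had 0 counts in TC1936, and STMN2 likewise was highest in TC1473 (12.26) and lowest in TC1936 (1.64). TC1936 was thus the lowest of the 5 in MYT1, MYT1L, SST and STMN2.

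**Figure D5:**
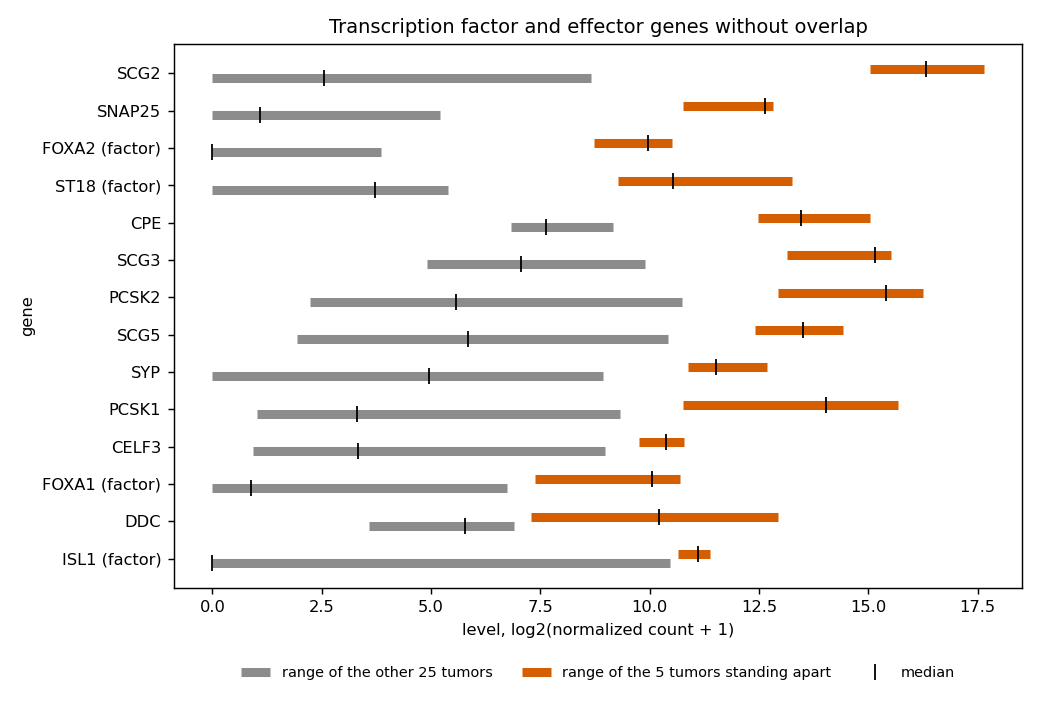
Ranges of the level, log2(normalized count + 1), in the 5 tumors that stood apart (orange) and in the other 25 (gray), with medians as ticks, for the factors and effector genes whose ranges did not overlap. ISL1 showed the narrowest gap, owing to TC1088, and SCG2 the widest.

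In the lists that follow, no gene was without overlap, which was also the case for most genes of the series (1.8% higher and 0.331% lower without overlap). This held for all 16 binding partners and corepressors, including KDM1A, the histone demethylase gene that zinc finger repressors recruit (10.09 to 10.75 in the 5 and 10.31 to 12.38 in the 25), and LDB1, the cofactor gene of LIM homeodomain proteins (10.17 to 11.36 and 9.90 to 12.18). The median difference over these 16 genes was 0.02, the same as over all genes. It also held for 4 zinc finger relatives, 5 homeodomain genes, 4 endoderm factors and 2 SOX and POU genes that passed the limit. PROX1, a homeodomain factor gene, lay between 10.82 and 12.44 in the 5 tumors and overlapped through TC1241 (12.90), while the rest of the 25 were at or below 9.34.
Among 15 repressors of the neuroendocrine program that passed the limit, the median difference was -0.97, with 0 genes lower without overlap. REST, which encodes the repressor of neuronal genes in other cells, lay between 7.77 and 9.97 in the 5 tumors and between 9.63 and 13.00 in the 25. NOTCH2 lay between 9.66 and 12.58, against 12.52 and 15.05. YAP1 lay between 7.05 and 9.98, against 9.67 and 11.42. In each of these 3 genes the ranges met only at their ends. All 15 repressors overlapped, and the ranges of the others are not given here. KDM1A, LDB1, PROX1, REST, NOTCH2 and YAP1 were named after their values were seen.
Within the 25 tumors, 0 of the 68 list genes were related to CALCA at an adjusted p of 0.05. The share over all genes was 0.0% as well, so this is no result about the lists. With PAX8, 2 of 68 were, both positively, a share near the 2.31% of all genes and so no result about the lists: LDB1 (rho = 0.62, permutation p = 0.00135, adjusted p = 0.0442) and ID1 (rho = 0.72, permutation p = 0.00012, adjusted p = 0.0270).

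TC1088 carried ISL1 without the rest of the set: FOXA1 had 4 counts, FOXA2 had 0, ST18 had 12 and MYT1 had 2. It was also the highest of the 25 in 6 of the 68 list genes, while TC22 was the highest in 9. The same share over all genes was not computed, so these counts are no result about the lists. Among the 6 genes of TC1088 were PCSK2 (10.74), a prohormone processing enzyme gene, SYT1 (10.03), a vesicle fusion gene, and JAG2 (12.40), a Notch ligand gene. All 3 were named after their values were seen. PCSK2 in the 5 tumors was at 12.94 or more, whereas SYT1 in TC1088 exceeded every one of the 5, the highest of which was at 7.88. ISL1 in TC1088 was thus accompanied by some effector genes and not by others. On the same scale of summed counts, 4 leukocyte markers (PTPRC, CD3E, CD79A and CD68) reached 15.98 in TC1088, the highest of the 25, against 12.49 to 15.30 in the 5 tumors. That sum was nearly all CD79A (15.96). CD68 (5.45) was the lowest of all 30 tumors, and PTPRC (9.26) lay below its highest level among the 25 (10.68). CD3E (5.99), by contrast, lay below only TC815 (6.46) among the 25. CD79A was the largest part of the sum in every tumor, with 12.27 to 15.27 in the 5 tumors. The sum therefore follows mainly that gene and is no measure of leukocytes as a whole. The 4 stromal and endothelial markers (COL1A1, DCN, PDGFRB and PECAM1) were at 10.16, the lowest of the 25, against 13.03 to 17.01. Their part in the ISL1 value was not tested.

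The genes next to the factors on the chromosome were compared in the tumor in which each factor was highest. In TC1020, with the highest MYT1, its neighbors OPRL1 (9.66) and PCMTD2 (12.50) were also the highest of the 30 tumors. In TC1473, with the highest ST18, its neighbor RB1CC1 (12.85) was the highest of the 30. Most neighbors, taken up to 3 on each side where matched, did not behave in this way. RGS19 beside MYT1, and SNTG1, PXDNL and PCMTD1 beside ST18, were highest in other tumors. No matched neighbor of ISL1, FOXA1, FOXA2 or NKX2-2 was highest in the tumor with the highest level of that factor. By the gene order of the UU_Cfam_GSD_1.0 assembly, FOXA2, PAX1 and NKX2-2 follow each other. In TC640, with the highest NKX2-2, FOXA2 and PAX1 both had 0 counts, while NKX2-4, on the other side, was at 6.53, close to its median over the 30 tumors (6.27). In TC1020, with the highest FOXA2, PAX1 and NKX2-2 had 0 counts. PAX1 was highest in TC1088 (11.56), which had 0 counts of FOXA2 and 3 of NKX2-2. PAX1 encodes a paired box factor of the pharyngeal pouches, as does PAX9, which lies near FOXA1.
PAX9 was highest in TC1088 as well (12.72), and lay between 9.25 and 11.45 in the 5 tumors. The next highest of the 25 were TC640 (10.08) and TC2011 (8.51), the tumors with the highest FOXA1 among the 25. FOXA1 in TC1088, however, had only 4 counts. PAX1, PAX9 and the other neighbors were named after their values were seen. Which strand the counting used is not given in the sources used here, so reads of genes on opposite strands that overlap could not be told apart.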

How the data were processed

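Total RNA libraries of 30 canine thyroid tumors, depleted of ribosomal RNA, were sequenced by the authors, who used STAR with the CanFam3.1 genome and deposited raw read counts per Ensembl gene and tumor, in 1 table without normalization. The table held 0 columns of no sample. Genes were named by the deposited symbol (15780 of 30424 genes). The strand setting is not given in the sources used here. Sequences and coordinates were not used here.

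Counts were divided by median-of-ratios size factors (over 15611 genes with a count in every tumor, 0.279 to 1.62) and expressed as log2 of the quotient plus 1. Comparisons covered the 18711 genes that reached 10 counts in 5 or more tumors. Replicates were compared first: the rank correlation of counts between pairs of tumors ran from 0.797 to 0.959, and 0 pairs held identical counts. The labels gave 1 group and do not say which tumors came from separate dogs, so p-values measure the spread between these samples. Tumors were clustered (Ward linkage) on the genes whose mean level exceeded 2 and whose variance exceeded 6, the 8 factors left out. Correlations within the 25 tumors used two-sided permutation tests and Benjamini-Hochberg adjustment, and the procedure was tested on simulated data. The simulated relations joined well-counted genes to a continuous measure. They do not show what could be detected for factors with few counts. The smallest p that the permutations could give was 1e-05. Poisson intervals (95%) and the floor of 3 counts cover counting error only.

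Named genes were the 8 factors, CALCA, CALCB, PAX8 and TG, the 3 genes most like each factor, and from each list up to 4 genes without overlap or related to CALCA. Other genes, among them RET and all others given with values, were named after their values were seen. Results of some other genes are not reported here. The factors and lists were chosen with earlier results of these data known. Alternatives were TMM scaling (edgeR 4.0.16 in R 4.3.3), scaling by total count alone, a pseudocount of 8, complete linkage, other count limits, Pearson's r, and leaving out TC1088 or TC538. Python 3.11.15, numpy 2.4.6, scipy 1.17.1, pandas 2.3.3 and matplotlib 3.10.9 were used.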

Additional observations from a re-analysis of the deposited data

How the results depend on the processing

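The 5 tumors separated from the other 25 under every clustering alternative tried, and ISL1, FOXA1, FOXA2 and ST18 were without overlap under every alternative. Of the values that answer a comparison, 3 moved. Without TC1088, 141 genes were lower without overlap in the 5 tumors instead of 62, whereas without TC538 there were 79. The cause was not tested. With a pseudocount of 8, the median of NKX2-2 in the 5 tumors became 3.00, the log2 of the pseudocount itself, and its distance to the highest other tumor -7.63 instead of -10.62. Scaling by total count alone for the overlap counts, added after seeing the data, gave 307 genes higher and 52 lower.

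Some correlations within the 25 tumors changed sign, all of them weak and none past the limit under any alternative. For FOXA1 and MYT1 the value was -0.02 by rho, 0.0136 by Pearson's r, 0.0239 without TC1088 and 0.051 without TC538. ST18 and MYT1 gave -0.0652 by Pearson's r, and FOXA2 and ST18 gave -0.0199 without TC538. With CALCA, Pearson's r was -0.109 for ISL1, 0.0931 for FOXA1, -0.0648 for ST18 and 0.0001 for MYT1. With PAX8, Pearson's r was -0.0187 for FOXA1 and 0.0403 for FOXA2, rho was 0.0597 for ISL1 without TC1088, and without TC538 rho was -0.0143 for FOXA1 and 0.0142 for FOXA2. Their cause was not tested either. Depth limits statements on FOXA1, FOXA2, ISL1 and NKX2-2 in most of the 25 tumors, where they had 3 counts or fewer and absence cannot be told from a low level. No paired analysis was possible because the labels hold a single group.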

Other observations

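The marker lists held CASR, the calcium receptor gene of parathyroid and C cells. It lay between 13.37 and 15.48 in the 5 tumors and at no more than 9.38 (TC2288) in the other 25. The parathyroid markers PTH and GCM2 overlapped, and GCM2 did not pass the count limit. Both were highest in TC2288, PTH at 14.80 (25445 counts) and GCM2 at 7.65 (178 counts). The part of parathyroid cells in the CASR value of TC2288 was not tested. GFRA4, the co-receptor gene of RET in C cells, reached 13.85 in TC1936 but was at 2.21 in TC1473, which had the highest ST18, SST and STMN2. LMX1B, a LIM homeodomain gene like ISL1, ranged from 2.88 (TC1936) to 12.29 (TC1020) in the 5 tumors, the same extremes as MYT1. It reached 9.63 in TC812, the tumor with the highest MYT1 of the 25. That MYT1 rank rested on 24 counts (95% Poisson interval 15.4 to 35.7), against 18 (10.7 to 28.4) in TC67, so it lay within counting error. CASR, PTH, GCM2, GFRA4 and LMX1B were named after their values were seen, and no test was made.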
